A study of Mus musculus with 11 samples.

Results

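The response of the mouse heart to pressure load was measured with both genotypes of the study together: 6 libraries after transverse aortic constriction (TAC) against 5 after sham surgery, with genotype as an additive term. The members are all 11 of the 11 libraries of the series, chosen by their treatment labels, since every sample title begins with TAC, the sham samples included. TAC ties a suture around the aortic arch, so that the left ventricle pumps against a narrowed outlet. Mice were operated on at 10 to 12 weeks of age, and total RNA of whole ventricular muscle was sequenced. There were 2 WT and 3 KO libraries after sham surgery, and 3 of each genotype after TAC; they are numbered within their group. KO mice carried floxed alleles of Lmnb2 (lamin B2, a filament protein under the nuclear membrane) and a Cre recombinase driven by the Tnnt2 promoter, which is active in cardiomyocytes. Controls, called WT, carried Tnnt2-Cre too, so that the groups share the Cre. However, 1 of the 2 WT sham libraries, WT sham 2, has the plain genotype label WT and was read as the same control. Its label does not say whether it carried the Cre. How long after surgery hearts were taken is not given in the sources used here. Nothing in the labels says that libraries of 1 group came from separate hearts, so p-values measure the spread between these libraries.

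Under a sustained rise in pressure, cardiomyocytes thicken, add sarcomeres and take up part of the gene programme of the fetal heart, while fibroblasts lay down matrix and macrophages gather. The adult ventricle makes most of its ATP in mitochondria by burning fatty acids, and pathological growth is known for a shift away from this. The comparison over both genotypes has the most libraries, and the genes that pass the test with it alone are described here with those that pass in each genotype.

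Library totals were 14914283 to 17333227 counts in sham and 14770383 to 16952248 counts in TAC. Mitochondrially encoded transcripts took 32.8% to 49.4% of counts in sham and 13.2% to 35.9% in TAC, and mRNAs of ribosomal proteins took 0.652% to 1.73% and 0.872% to 6.74%. Of the TAC libraries the last share was lowest in KO TAC 1 (0.872%) and WT TAC 3 (1.32%). The summed level of the ventricular myocyte markers Myh6, Myl2, Myl3, Tnni3, Actc1 and Ryr2, in CPM (counts scaled to the same library size), was 33712 to 56011 in sham and 29173 to 43830 in TAC. Lmnb2 measured 4.44 and 3.86 CPM in the WT sham libraries and 0.648 to 2.43 CPM in the KO sham libraries, but 2.16 to 6.69 CPM in WT TAC and 3.23 to 9.72 CPM in KO TAC. After TAC it was therefore not lower in the libraries labelled KO, and KO below means libraries with that label. The numbers in the sample titles fall into separate ranges for TAC and for sham, so that whatever follows them cannot be told apart from surgery. Whether counting used the strand is not given in the sources used here, so reads of a gene and of a partner on the other strand cannot be told apart. Of the genes named below, Cxcl16, Arpc1b, Dbp, Car14, Pdha1, Csf1r, Irf5 and Tor1aip1 share 12.9% to 18.3% of their exon length with such a partner.

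With both genotypes together, 2855 of 14619 tested genes differed between TAC and sham (19.5%), 1545 of them higher (10.6%) and 1310 lower (8.96%). WT alone, comparing 2 sham with 3 TAC libraries, gave 1011 calls (6.92%, of which 3.88% higher and 3.04% lower). KO alone, comparing 3 with 3, gave 687 (4.70%, of which 3.32% higher and 1.37% lower). Both came from 1 fit of all 11 libraries with a mean per group, so the spread behind each was estimated from both genotypes. Of the 2855 genes 1660 (11.4% of tested genes) were made in neither genotype alone, 816 higher (5.58%) and 844 lower (5.77%). A gene was called at an adjusted p under 0.05 in edgeR's quasi-likelihood test with Benjamini-Hochberg adjustment over all tested genes. For the 1660 genes the median size of change was 1.02 on the log2 scale (quartiles 0.75 and 1.502), and 810 of them (48.8%) changed by less than 2-fold. Many came near the threshold without pooling, since 838 of the 1660 had an edgeR adjusted p under 0.1 in WT or KO alone. The 446 genes called in each genotype alone had a median change of 2.15, and 7 of them changed by less than 2-fold. TAC and sham libraries did not overlap for 800 of the 1660 genes (48.2%), against 445 of the 446, and for 1987 genes (13.6%) of all tested. The balance of the directions changed with the scaling. With library totals in place of TMM factors the median change of all genes moved from 0.05 to 0.45, and 3574 genes were higher and 387 lower, against 1545 and 1310. Every fall below is thus a fall relative to the bulk of genes, and 69 of the 87 falls named here, a set from which some genes with unstable calls were left out, were not called under library totals, with none reversed. Of the 1660 genes, 590 (35.5%) were still called without WT sham 1, 753 (45.4%) without WT sham 2 and 1551 (93.4%) without KO TAC 1. With only the libraries whose title ends in M, which leaves out 2 TAC libraries and 1 sham library, 454 of the 1660 genes (27.3%) were still called. With all 11 libraries and the title letter as a covariate 1323 (79.7%) were. With the share of ribosomal protein mRNA as a covariate 823 (49.6%) were. Leaving out WT TAC 3 raised the calls in WT alone from 1011 to 2666, so that only 942 genes were then called in neither genotype alone. The response did not differ between genotypes for any gene at this threshold (0 of 14619, 0.00%, by edgeR, 2 by DESeq2 and 0 by limma-voom), and 434 genes had an unadjusted p under 0.05. This does not show that the genotypes respond alike.

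**Figure D1:**
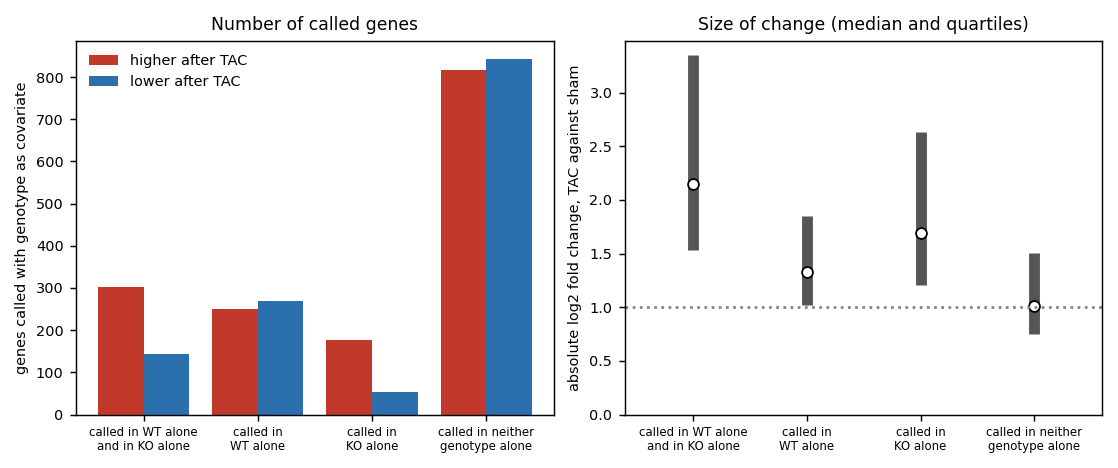
Genes called for TAC against sham with genotype as covariate, divided by whether WT alone (2 sham, 3 TAC libraries) or KO alone (3 and 3) also called them. The WT and KO comparisons share 1 estimate of the spread per gene from all 11 libraries. Left, number of genes higher (red) and lower (blue); right, absolute log2 fold change as median (circle) and quartiles (bar), with 2-fold dotted. The class called in neither genotype alone holds 816 higher and 844 lower genes with a median change of 1.02, against 2.15 in the class called in both.

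**Figure D2:**
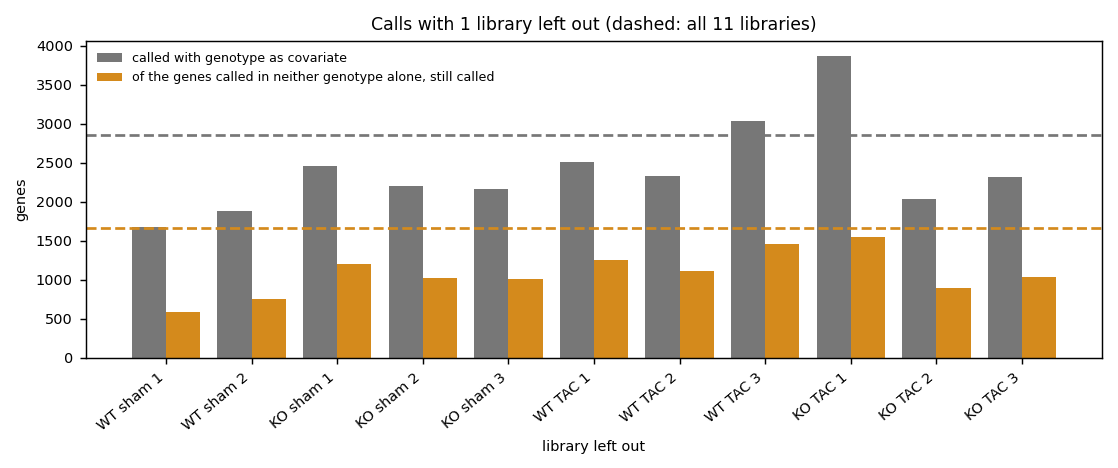
Genes called with genotype as covariate after 1 library was left out (grey bars), and how many of the 1660 genes called in neither genotype alone were then still called (orange bars); dashed lines are the counts with all 11 libraries. The calls ran from 1672 without WT sham 1 to 3870 without KO TAC 1, and 590 to 1551 of the 1660 genes were still called.

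The changes with the smallest p were rises of matrix and membrane genes and falls of channel and metabolic genes, each called in both genotypes alone. The rises were Fn1, which encodes fibronectin (4.00 ± 0.23, the log2 change with its standard error as throughout), Postn, a matricellular protein (6.17 ± 0.42), Ltbp2, a microfibril protein (5.78 ± 0.41), the collagen chains Col1a2 (3.51 ± 0.26) and Col8a1 (3.53 ± 0.27), and Emp1, a tetraspan membrane protein. Emp1 stood at 37.2 and 40.4 CPM in the WT sham libraries, 40.9, 48.2 and 40.9 CPM in the KO sham libraries, and 218 to 421 CPM (median 353) in the 6 TAC libraries. All TAC libraries were far above all sham libraries, with a log2 change of 3.03 ± 0.23 (edgeR adjusted p = 1.24e-05). The falls were the potassium channel subunits Kcnv2 (-3.76 ± 0.29) and Kcnj3 (-2.37 ± 0.24), the carboxylesterase Ces1d (-3.67 ± 0.38), Smco1, a membrane protein (-2.01 ± 0.21), Gstk1 and Phkg1. Gstk1 stood at 97.2 and 76.0 CPM in the WT sham libraries, 89.3, 76.9 and 83.9 CPM in the KO sham libraries, and 20.2 to 30.4 CPM (median 24.1) in the 6 TAC libraries; it encodes a glutathione transferase of mitochondria and peroxisomes. Phkg1 stood at 18.1 and 19.4 CPM in the WT sham libraries, 17.6, 22.2 and 20.8 CPM in the KO sham libraries, and 0.924 to 3.76 CPM (median 2.46) in the 6 TAC libraries; it encodes the catalytic subunit of muscle phosphorylase kinase, which starts glycogen breakdown. All TAC libraries lay below all sham libraries for both, with log2 changes of -1.76 ± 0.16 (edgeR adjusted p = 4.79e-05) and -3.05 ± 0.29 (edgeR adjusted p = 4.92e-05). In bulk RNA a change in the number of cells of a type and a change in RNA per cell cannot be told apart, here and below.

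Among the genes that only the pooled comparison called, the 12 rises with the smallest p (mean of at least 5 CPM, TAC and sham libraries apart) included contractile, receptor, immune and cytoskeletal genes. Myh7, the slow, fetal myosin heavy chain of cardiomyocytes, had the widest range of these 12 over the TAC libraries. Myh7 stood at 74.0 and 45.0 CPM in the WT sham libraries, 26.7, 55.7 and 39.9 CPM in the KO sham libraries, and 101 to 1715 CPM (median 381) in the 6 TAC libraries. All TAC libraries were above all sham libraries, but WT TAC 1 and 2, at 111 and 101 CPM, were the closest to the sham libraries and WT TAC 3 stood far above the rest. The log2 change was 3.51 ± 0.69 (edgeR adjusted p = 0.00368), and it was 3.43 ± 1.10 in WT (edgeR adjusted p = 0.0782) and 3.57 ± 0.94 in KO (edgeR adjusted p = 0.0501). Tpm2, the beta tropomyosin of thin filaments and of smooth muscle, ranged from 9.21 to 23.9 CPM in sham and from 28.8 to 53.3 CPM in TAC, a change of 1.23 ± 0.24 (edgeR adjusted p = 0.00315). Mtpn encodes myotrophin, a small protein first described for its effect on myocyte growth. Mtpn stood at 45.7 and 64.1 CPM in the WT sham libraries, 44.9, 48.5 and 43.9 CPM in the KO sham libraries, and 71.6 to 152 CPM (median 108) in the 6 TAC libraries. Its lowest TAC library, KO TAC 1, was above the highest sham library, WT sham 2, and the log2 change was 1.10 ± 0.21 (edgeR adjusted p = 0.00332).

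The other rises of this kind were receptors, immune genes and cytoskeleton. Tnfrsf1a, the main receptor for tumour necrosis factor, ranged from 19.5 to 29.2 CPM in sham and from 35.3 to 59.4 CPM in TAC (0.94 ± 0.18, edgeR adjusted p = 0.00347), with estimates of 0.94 in WT and 0.94 in KO. Eda2r is another receptor of that family. Eda2r stood at 3.00 and 3.23 CPM in the WT sham libraries, 3.70, 2.71 and 3.05 CPM in the KO sham libraries, and 5.76 to 12.0 CPM (median 7.05) in the 6 TAC libraries. The sham libraries lay close together, WT TAC 1 was the highest and the log2 change was 1.31 ± 0.25 (edgeR adjusted p = 0.00295). Cd14, the co-receptor for bacterial lipopolysaccharide on monocytes and macrophages, rose by 1.37 ± 0.26 (edgeR adjusted p = 0.00265, and 0.0555 in WT and 0.0507 in KO alone). C1qa, a chain of complement C1q made by macrophages, rose by 1.34 ± 0.26 (edgeR adjusted p = 0.00367), Cxcl16, a membrane-bound chemokine, by 1.58 ± 0.31 (edgeR adjusted p = 0.00372), and Pla2g7, a lipase that inactivates platelet-activating factor, by 1.64 ± 0.32 (edgeR adjusted p = 0.00372). Sdc1 (syndecan 1, a heparan sulfate proteoglycan) rose by 1.67 ± 0.33 (edgeR adjusted p = 0.0036). Arpc1b (a subunit of the actin-nucleating Arp2/3 complex) and Tubb5 (a beta tubulin) changed by 1.33 ± 0.25 and 1.01 ± 0.19. KO TAC 1 or WT TAC 3 was the lowest TAC library for 10 of the 12 rises, all but Tnfrsf1a and Myh7.

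**Figure D3:**
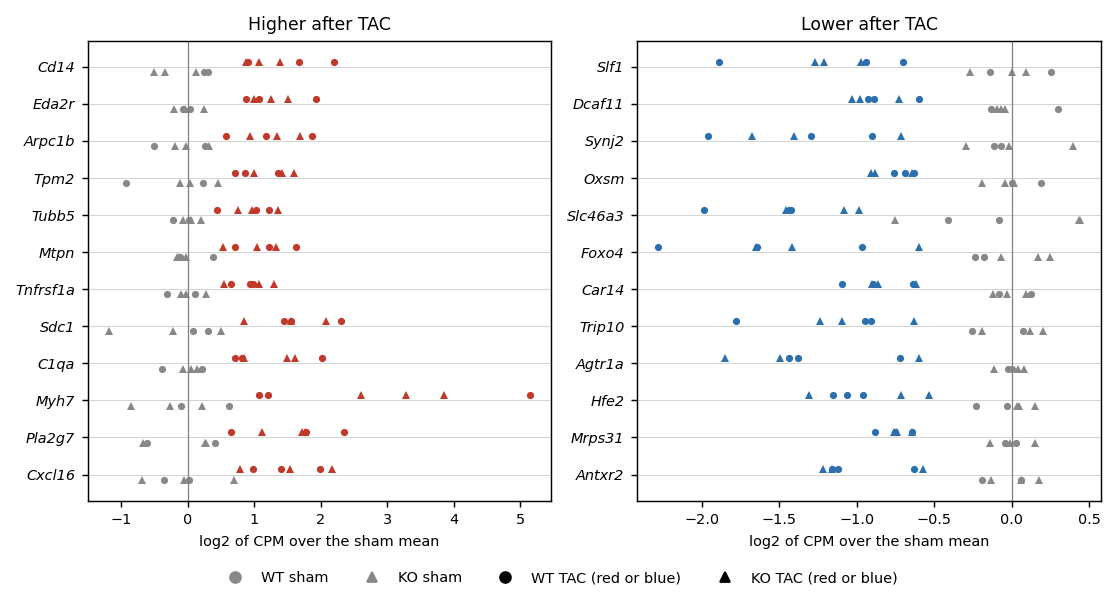
CPM of each library over the mean of the 5 sham libraries, on a log2 axis, for the 12 rises (left) and 12 falls (right) with the smallest p among genes called only with both genotypes together. Circles are WT and triangles KO libraries, grey for sham and red or blue for TAC; the TAC libraries of Myh7 spread from 101 to 1715 CPM, whereas those of Mrps31 stay within 33.1 to 39.1 CPM.

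The 12 falls of this kind had log2 changes from -1.32 to -0.73, and the 12 rises from 0.94 to 3.51. Mrps31 stood at 62.1 and 59.1 CPM in the WT sham libraries, 60.7, 55.4 and 67.8 CPM in the KO sham libraries, and 33.1 to 39.1 CPM (median 36.3) in the 6 TAC libraries. This subunit of the mitochondrial ribosome was lower in every TAC than in every sham library, with a log2 change of -0.73 ± 0.14 (edgeR adjusted p = 0.00346). Agtr1a stood at 43.6 and 44.4 CPM in the WT sham libraries, 46.9, 45.7 and 40.9 CPM in the KO sham libraries, and 12.3 to 29.3 CPM (median 16.7) in the 6 TAC libraries. Agtr1a encodes the main angiotensin II receptor of the rodent heart; its 5 sham libraries were within a narrow range, all TAC libraries were lower, and the change was -1.18 ± 0.23 (edgeR adjusted p = 0.00337). Car14 stood at 131 and 113 CPM in the WT sham libraries, 117, 127 and 109.9 CPM in the KO sham libraries, and 55.8 to 77.9 CPM (median 64.9) in the 6 TAC libraries. Car14, a membrane carbonic anhydrase, changed by -0.83 ± 0.16 (edgeR adjusted p = 0.00313) with no overlap. Foxo4, a forkhead transcription factor held back by insulin signalling, changed by -1.29 ± 0.25, Trip10, a membrane-bending effector of Cdc42, by -1.04 ± 0.20, Synj2, an inositol phosphatase, by -1.25 ± 0.23, and Antxr2, a receptor for matrix proteins, by -0.95 ± 0.19. Slf1, which recruits the SMC5/6 complex to damaged DNA, changed by -1.13 ± 0.21, the ubiquitin ligase receptor Dcaf11 by -0.86 ± 0.16, the lysosomal transporter Slc46a3 by -1.32 ± 0.25, and Hfe2, hemojuvelin, an iron-regulatory co-receptor, by -0.91 ± 0.18. Oxsm, an enzyme of mitochondrial fatty acid synthesis, changed by -0.76 ± 0.14 (edgeR adjusted p = 0.00284). Under library totals 7 of these 12 falls were not called (log2 changes from -0.91 to -0.33, edgeR adjusted p from 0.0255 to 0.18).

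The tricarboxylic acid cycle, which oxidises acetyl-CoA, was the list to which pooling added the most falls of the 73 counted. Of 39 tested genes of the cycle and of pyruvate entry, 28 fell, 19 of them called in neither genotype alone, with a list median of -0.75 against 0.05 over all genes. Idh3g stood at 685 and 545 CPM in the WT sham libraries, 643, 609 and 659 CPM in the KO sham libraries, and 229 to 432 CPM (median 338) in the 6 TAC libraries. It encodes a subunit of isocitrate dehydrogenase, and the groups were apart by over 100 CPM with a change of -0.90 ± 0.19 (edgeR adjusted p = 0.00601). Citrate synthase, Cs, which opens the cycle, fell in all TAC libraries below the lowest sham library (-0.85 ± 0.19, edgeR adjusted p = 0.00802), and Pdha1, the alpha subunit of pyruvate dehydrogenase, from 853 to 1028 CPM in sham and from 471 to 599 CPM in TAC (-0.77 ± 0.17, edgeR adjusted p = 0.00631). A pair of kinases that switch off pyruvate dehydrogenase moved in opposite directions: Pdk2 ranged from 249.7 to 347 CPM in sham and from 62.0 to 199.7 CPM in TAC (-1.31 ± 0.30, edgeR adjusted p = 0.00826), and Pdk3, the one gene of the list that rose, from 1.39 to 2.96 CPM in sham and from 4.62 to 19.2 CPM in TAC (2.13 ± 0.38, edgeR adjusted p = 0.00226). Without WT sham 1 the list had 18 falls, and with library totals 6 falls and 2 rises. The shares of all genes to set beside this and the following lists were 10.6% higher and 8.96% lower (5.58% and 5.77% with pooling alone). Counts of calls on leaving out 1 library are given, here and for the lists that follow, where they moved by over 1.5 times. Some counts of only a few calls moved as much and are not given. The summed level of the myocyte markers was lower in TAC on the whole, as given above, but its range overlapped with that in sham, and its part in the falls of this and the following metabolic lists was not tested.

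The respiratory chain held fewer calls. Of 78 nuclear-encoded subunits 14 fell and none rose, 12 of the falls with pooling alone, and the list median was -0.18. Atp5a1 stood at 4516 and 4022 CPM in the WT sham libraries, 3886, 4329 and 3878 CPM in the KO sham libraries, and 2073 to 2524 CPM (median 2243) in the 6 TAC libraries. Atp5a1 is the alpha subunit of ATP synthase, and all its TAC libraries were below all sham libraries (-0.86 ± 0.17, edgeR adjusted p = 0.00386). The core subunit of complex III Uqcrc1 changed by -0.87 ± 0.20 (edgeR adjusted p = 0.00856), and the complex I subunits Ndufa10 and Ndufv1 by -0.68 ± 0.16 (edgeR adjusted p = 0.0101) and -0.77 ± 0.18 (edgeR adjusted p = 0.0109). Ndufv1 was not called without WT sham 1 (edgeR adjusted p = 0.0593). The falls were 5 on leaving out WT sham 1, 7 for KO sham 1, 8 for KO sham 3 and 9 for KO TAC 2. The number of falls differed widely between settings: it was 67 once the share of ribosomal protein mRNA was a covariate and 2 under library totals (with 2 rises), and the summed level of the list was 42755 to 80964 CPM in sham and 25012 to 90714 CPM in TAC.

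Among factors that build the chain most genes did not pass the test. Of 53 assembly and coenzyme Q genes 16 fell and 0 rose, 12 with pooling alone. Coq8a, needed for coenzyme Q synthesis, ranged from 394 to 543 CPM in sham and from 186 to 301 CPM in TAC (-0.90 ± 0.19, edgeR adjusted p = 0.00582). Atpaf1 and Atpaf2, which assemble the catalytic part of ATP synthase, changed by -0.69 ± 0.15 (edgeR adjusted p = 0.0075) and -0.64 ± 0.16 (edgeR adjusted p = 0.0144), and Cox10, which makes the haem of complex IV, by -0.71 ± 0.17 (edgeR adjusted p = 0.0114). Atpaf2 was not called without WT sham 1 (edgeR adjusted p = 0.0625). Cox10 was not called without WT sham 1 (edgeR adjusted p = 0.0576). With library totals the list had 2 falls and 3 rises, and, with the share of ribosomal protein mRNA as a covariate, 29 falls. The count of falls was 6 on leaving out WT sham 1, 9 for WT sham 2 and 10 for KO sham 3.

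Expression of the mitochondrial genome itself depends on nuclear genes. Of 51 such genes 21 fell and 0 rose, 13 with pooling alone, with a median of -0.50. Mto1, which modifies mitochondrial transfer RNAs, changed by -0.82 ± 0.18 (edgeR adjusted p = 0.00682). Tsfm stood at 27.1 and 23.7 CPM in the WT sham libraries, 27.8, 24.001 and 27.1 CPM in the KO sham libraries, and 13.3 to 19.2 CPM (median 14.97) in the 6 TAC libraries. Tsfm, an elongation factor of mitochondrial translation, was lower in all TAC than in all sham libraries (-0.71 ± 0.16, edgeR adjusted p = 0.00794). In the mitochondrial ribosome 8 of 77 subunits fell and 0 rose, near the 8.96% of all genes (median -0.10), among them Mrpl45 (-0.69 ± 0.16) and Mrpl37 (-0.67 ± 0.16). Mrpl37 was not called without WT sham 1 (edgeR adjusted p = 0.0613). Under library totals 1 gene of mitochondrial expression fell and 1 rose, and the falls numbered 9 on leaving out WT sham 1, 10 for WT sham 2, 12 for WT TAC 2 or KO TAC 2 and 13 for KO TAC 3. In the mitochondrial ribosome 0 fell under library totals and 29 with the share of ribosomal protein mRNA as a covariate, where the list median was -0.61, and the falls were 3 on leaving out WT sham 1 and 5 for KO sham 1, KO sham 3 or KO TAC 3.

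Calls among genes of mitochondrial shape, import and transport were nearly all falls. Of 59 import, dynamics and quality genes 14 fell and 0 rose (10 with pooling alone). Hspa9, the matrix chaperone that draws proteins in, ranged from 734 to 1007 CPM in sham and from 353 to 623 CPM in TAC (-0.90 ± 0.21, edgeR adjusted p = 0.00895). Immt, which holds cristae junctions, changed by -0.60 ± 0.16 (edgeR adjusted p = 0.0172), and Opa1, which fuses the inner membrane, by -0.88 ± 0.23 (edgeR adjusted p = 0.0172). Of 39 carriers 12 fell and 1 rose. The riser was Slc25a24, a calcium-regulated carrier of ATP and magnesium, which ranged from 4.07 to 6.75 CPM in sham and from 8.58 to 14.5 CPM in TAC (1.10 ± 0.22, edgeR adjusted p = 0.00387). Slc25a12, the aspartate and glutamate carrier of the malate shuttle, changed by -0.74 ± 0.17 (edgeR adjusted p = 0.00934). Immt was not called without WT sham 1 (edgeR adjusted p = 0.0709). Opa1 was not called without WT sham 2 (edgeR adjusted p = 0.0671). With library totals the falls numbered 1 of 59 and 4 of 39, beside 4 and 7 rises. Falls of the import list numbered 6 on leaving out WT sham 1, 7 for KO TAC 2 or KO TAC 3, 8 for WT sham 2 and 9 for KO sham 2 or KO sham 3, and those of carriers 7 on leaving out WT sham 1.

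**Figure D4:**
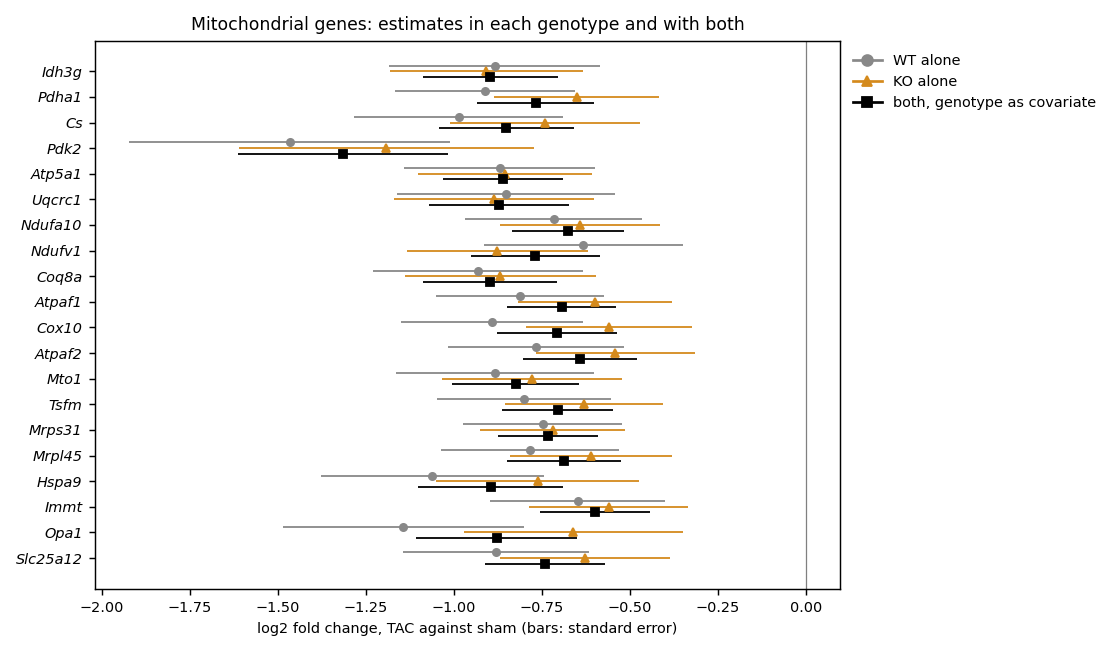
Log2 fold change of TAC against sham with its standard error for 20 mitochondrial genes, in WT alone (grey circles), KO alone (orange triangles) and with genotype as covariate (black squares). The pooled bars are shorter: that of Cs is 0.19 wide on each side, against 0.30 in WT and 0.27 in KO, around estimates of -0.85, -0.99 and -0.74.

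Fatty acids are the main fuel of the ventricle. Of 44 genes of fatty acid uptake and oxidation 28 fell, 10 with pooling alone, and 1 rose. Lpl stood at 6109 and 7809 CPM in the WT sham libraries, 5144, 5579 and 5163 CPM in the KO sham libraries, and 2782 to 4182 CPM (median 3542) in the 6 TAC libraries. Lpl, which frees fatty acids from lipoproteins, did not overlap between groups (-0.76 ± 0.18, edgeR adjusted p = 0.0114). Mlycd, which removes the malonyl-CoA that blocks fatty acid entry into mitochondria, changed by -1.03 ± 0.25 (edgeR adjusted p = 0.0111), and Acacb, which makes that malonyl-CoA, by -1.32 ± 0.35 (edgeR adjusted p = 0.018). The single rise was Acsl5, an acyl-CoA synthetase (0.53 ± 0.16, edgeR adjusted p = 0.0299). In lipid storage 14 of 35 genes fell, 9 with pooling alone, such as the lipoprotein receptor Vldlr (-0.77 ± 0.19, edgeR adjusted p = 0.0123) and the acyltransferase Agpat3 (-0.85 ± 0.20, edgeR adjusted p = 0.01). Mlycd was not called without WT sham 1 (edgeR adjusted p = 0.0579). Acacb was not called on leaving out any 1 of WT sham 1 and 2, KO TAC 2 and 3 (edgeR adjusted p from 0.0502 to 0.0578). Acsl5 was not called on leaving out any 1 of WT sham 1 and 2, KO sham 1, 2 and 3, WT TAC 3, KO TAC 1 and 3 (edgeR adjusted p from 0.0527 to 0.083). Library totals left 18 and 4 falls in these lists, and those of lipid storage were 8 on leaving out KO TAC 2 and 9 for WT sham 1.

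Peroxisomes, which shorten very long and branched fatty acids, had 16 falls and 0 rises among 46 genes (10 with pooling alone; 4 falls and 3 rises with library totals). Peroxisomal falls numbered 7 on leaving out WT sham 1 or KO TAC 2, 8 for WT sham 2, 9 for KO sham 3 and 10 for KO TAC 3. Phyh stood at 1007 and 988 CPM in the WT sham libraries, 1004, 855 and 998 CPM in the KO sham libraries, and 455 to 639.8 CPM (median 542) in the 6 TAC libraries. Phyh starts the breakdown of phytanic acid, and its TAC libraries were all lower (-0.84 ± 0.17, edgeR adjusted p = 0.00482). Pex11a, which drives peroxisome division, changed by -0.92 ± 0.19 (edgeR adjusted p = 0.00565), and Abcd3, a fatty acid importer, by -0.69 ± 0.18 (edgeR adjusted p = 0.0154). Of 34 genes of branched chain amino acid and ketone breakdown 23 fell (8 with pooling alone, 15 with library totals). Hibadh, of valine breakdown, changed by -0.77 ± 0.17 (edgeR adjusted p = 0.00692), Pccb, which carboxylates propionyl-CoA, by -0.73 ± 0.17 (edgeR adjusted p = 0.0106), Acadsb, a short branched acyl-CoA dehydrogenase, by -0.68 ± 0.17 (edgeR adjusted p = 0.013), and Prodh, proline dehydrogenase, by -0.82 ± 0.19 (edgeR adjusted p = 0.0106). The one rise was Gatm, of creatine synthesis (0.93 ± 0.28, edgeR adjusted p = 0.0345). Abcd3 was not called without WT sham 2 or KO TAC 2 (edgeR adjusted p = 0.0573 and 0.058). Pccb was not called without WT sham 1 (edgeR adjusted p = 0.0605). Acadsb was not called without WT sham 2 (edgeR adjusted p = 0.0517). Gatm was not called on leaving out any 1 of WT sham 2, KO sham 1, 2 and 3, WT TAC 1, KO TAC 2 and 3 (edgeR adjusted p from 0.0601 to 0.0902).

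Among regulators of energy supply most calls were falls. Of 44 regulators 14 fell (31.8%, against 8.96% of all genes), 10 with pooling alone. Only 3 rose (6.82%, against 10.6% of all genes). The beta subunits of the AMP-activated kinase, the energy sensor of the cell, moved in opposite directions: Prkab1 ranged from 24.4 to 38.9 CPM in sham and from 12.4 to 22.1 CPM in TAC (-0.95 ± 0.20, edgeR adjusted p = 0.00485) and Prkab2 from 39.99 to 70.6 CPM in sham and from 52.5 to 205 CPM in TAC (1.25 ± 0.25, edgeR adjusted p = 0.00386). KO TAC 1, at 52.5 CPM, was inside the sham range for Prkab2, while the other 5 TAC libraries were above it. Its gamma 2 subunit Prkag2 changed by 1.05 ± 0.27 (edgeR adjusted p = 0.0151), and Hif1a, the oxygen-regulated transcription factor, by 0.87 ± 0.23 (edgeR adjusted p = 0.0168). Esrrg, a nuclear receptor that drives oxidative genes, changed by -1.05 ± 0.27 (edgeR adjusted p = 0.0172), and Rxrg, the partner receptor of many nuclear receptors, by -0.94 ± 0.20 (edgeR adjusted p = 0.00544). In creatine, adenylate and NAD metabolism 10 of 35 genes fell and 7 rose, with a median of -0.04. These were 28.6% and 20%, against 8.96% and 10.6% of all genes, and library totals gave 2 falls and 9 rises. The falls of this list were 3 on leaving out WT sham 1 and 6 for WT sham 2, KO sham 3 or KO TAC 2. They held Ak1 and Ak4, adenylate kinases of the cytosol and the mitochondrion, which changed by -0.90 ± 0.21 (edgeR adjusted p = 0.0105) and -0.65 ± 0.17 (edgeR adjusted p = 0.0175). Prkag2 was not called without WT sham 1 or WT sham 2 (edgeR adjusted p = 0.0632 and 0.0582). Hif1a was not called on leaving out any 1 of WT sham 1 and 2, KO TAC 2 (edgeR adjusted p from 0.0554 to 0.0756). Esrrg was not called without WT sham 2 or KO TAC 2 (edgeR adjusted p = 0.067 and 0.0512). Ak1 was not called without WT sham 1 (edgeR adjusted p = 0.0508). Ak4 was not called without WT sham 1 or WT sham 2 (edgeR adjusted p = 0.0636 and 0.061). The regulators had 2 falls with library totals and 8 once the share of ribosomal protein mRNA was a covariate. Their falls were 6 on leaving out KO TAC 2, 7 for WT sham 2, 8 for WT sham 1, 9 for KO sham 2 and 22 for KO TAC 1. Their rises were 1 on leaving out WT sham 1 or WT sham 2.

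Among ion channels falls outnumbered rises. Of 48 ion channel genes 21 fell, 9 with pooling alone, and 3 rose (12 and 7 with library totals). Kcnj11 stood at 42.0 and 26.0 CPM in the WT sham libraries, 27.1, 38.0 and 34.2 CPM in the KO sham libraries, and 9.76 to 20.9 CPM (median 14.6) in the 6 TAC libraries. Kcnj11 forms the pore of the ATP-sensitive potassium channel, and no TAC library reached the lowest sham value (-1.18 ± 0.23, edgeR adjusted p = 0.00391). Kcnh2, the channel of the rapid delayed rectifier current, changed by -1.10 ± 0.23 (edgeR adjusted p = 0.00484), Kcnk3, a background potassium channel, by -1.11 ± 0.24 (edgeR adjusted p = 0.00608), and Kcnd3, of the transient outward current, by -1.15 ± 0.26 (edgeR adjusted p = 0.00822). The rises included the chloride channel protein Clic5 (0.93 ± 0.20, edgeR adjusted p = 0.00575) and the calcium-permeable channel Trpv2 (1.30 ± 0.40, edgeR adjusted p = 0.0379). Trpv2 was not called on leaving out any 1 of WT sham 2, KO sham 1, 2 and 3, KO TAC 2 and 3 (edgeR adjusted p from 0.0557 to 0.099). Channel rises were 5 on leaving out KO TAC 1.

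In cAMP, adrenergic and angiotensin signalling 13 of 72 genes fell, 11 with pooling alone, and 9 rose. These were 18.1% and 12.5%, against 8.96% and 10.6% of all genes, and library totals gave 2 falls and 18 rises. Beside Agtr1a, the falls held Adra1b, an alpha 1 adrenergic receptor (-1.36 ± 0.29, edgeR adjusted p = 0.0056), and Pde3a, which degrades cAMP (-0.90 ± 0.22, edgeR adjusted p = 0.0123). Adra1b stood at 19.4 and 15.5 CPM in the WT sham libraries, 25.7, 21.2 and 37.3 CPM in the KO sham libraries, and 4.29 to 16.003 CPM (median 8.18) in the 6 TAC libraries. KO TAC 1 was the one TAC library within the sham range. The falls of this list were 5 on leaving out WT sham 1 or WT sham 2 and 8 for WT TAC 2 or KO TAC 2. A covariate for ribosomal protein mRNA left 7 falls. In calcium handling 11 of 46 genes fell and 3 rose (23.9% and 6.52%, against 8.96% and 10.6% of all genes). Library totals gave 6 falls and 8 rises. The falls were 7 on leaving out WT sham 1, WT sham 2, KO TAC 2 or KO TAC 3. The rises were 1 on leaving out WT sham 1 and 5 for KO TAC 1. Jph2, junctophilin 2, which ties the transverse tubule to the sarcoplasmic reticulum, ranged from 201 to 271 CPM in sham and from 103 to 183 CPM in TAC (-0.86 ± 0.20, edgeR adjusted p = 0.0101), and Cacna1s, the skeletal muscle L-type calcium channel, from 3.89 to 11.4 CPM in sham and from 0.357 to 3.53 CPM in TAC (-2.19 ± 0.51, edgeR adjusted p = 0.00948). At the intercalated disc 5 of 31 genes fell and 2 rose (16.1% and 6.45%), and 24 did not pass the test. Library totals gave 1 fall and 4 rises. The falls there were 3 on leaving out KO sham 2, KO sham 3, KO TAC 2 or KO TAC 3 and 9 for KO TAC 1. Among them Dsg2, desmoglein 2, changed by -1.20 ± 0.25 (edgeR adjusted p = 0.0056), and Tmem65 by -0.87 ± 0.18 (edgeR adjusted p = 0.00548).

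Of 52 transcription factors of cardiac lineages 9 rose and 7 fell, 6 and 5 with pooling alone (13 rises and 0 falls with library totals). The shares that rose and fell were 17.3% and 13.5%, against 10.6% and 8.96% of all genes. The falls were 3 on leaving out WT sham 1, 12 for WT TAC 3 and 13 for KO TAC 1. The rises included Sox9, a factor of cartilage and activated fibroblasts (2.10 ± 0.43, edgeR adjusted p = 0.00468), Twist1, of mesenchyme (1.87 ± 0.40, edgeR adjusted p = 0.00596), and Foxs1, of mural cells (1.98 ± 0.43, edgeR adjusted p = 0.00632). Sox9 stood at 0.312 and 1.42 CPM in the WT sham libraries, 0.37, 0.965 and 2.01 CPM in the KO sham libraries, and 2.92 to 5.33 CPM (median 4.32) in the 6 TAC libraries. Every TAC library was above every sham library, at levels that rest on few counts. Mef2a, the main MEF2 factor of adult heart muscle, fell by 0.79 ± 0.17 (edgeR adjusted p = 0.00696). Of the hypertrophy and fetal genes 22 of 28 rose and none fell, 5 with pooling alone. Beside Myh7 these held Ankrd23, a titin-binding stretch protein (1.25 ± 0.27, edgeR adjusted p = 0.00651), and Gdf15, a stress cytokine (2.80 ± 0.75, edgeR adjusted p = 0.0201). Gdf15 was at 0.343 and 0.762 CPM in KO TAC 3 and 1 and reached 8.77 CPM in WT TAC 3, so that the groups overlapped. Gdf15 was not called on leaving out any 1 of WT sham 1 and 2, KO TAC 2 (edgeR adjusted p from 0.0688 to 0.0913). In the sarcomere and Z-disc 7 of 48 genes rose and 9 fell (14.6% and 18.75%, against 10.6% and 8.96% of all genes). Library totals gave 13 rises and 3 falls. The rises were 3 on leaving out WT sham 2 or KO TAC 2, 4 for WT sham 1 and 11 for KO TAC 1. Flnc, filamin C, changed by 0.86 ± 0.24 (edgeR adjusted p = 0.0225), and Fhod3, a formin of sarcomeric actin, and Tmod4, a tropomodulin, by -0.87 ± 0.21 (edgeR adjusted p = 0.0104) and -1.15 ± 0.26 (edgeR adjusted p = 0.00768). Flnc was not called on leaving out any 1 of WT sham 2, KO sham 3, KO TAC 2 (edgeR adjusted p from 0.0525 to 0.0791).

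The actin list was the one to which pooling added the most rises of the 73 counted. Of 89 genes of actin dynamics 42 rose, 20 with pooling alone, and 2 fell, with a median of 0.72. Arpc1b stood at 27.7 and 16.3 CPM in the WT sham libraries, 28.6, 20.1 and 22.6 CPM in the KO sham libraries, and 34.4 to 84.1 CPM (median 55.2) in the 6 TAC libraries. The lowest TAC library, WT TAC 3, was above the highest sham library, KO sham 1 (1.33 ± 0.25, edgeR adjusted p = 0.00312). Capza1, an actin-capping subunit, changed by 1.21 ± 0.25 (edgeR adjusted p = 0.00528), and Marcks, a membrane protein that binds actin, by 1.30 ± 0.25 (edgeR adjusted p = 0.00336). The falls were Gsn, gelsolin, which severs actin filaments (-1.43 ± 0.26, edgeR adjusted p = 0.00221), and Cdc42ep3, a Cdc42 effector (-0.67 ± 0.17, edgeR adjusted p = 0.0138). Of 49 integrins and matrix receptors 17 rose, 10 with pooling alone (29 with library totals, 11 on leaving out WT sham 1). Itgb1, the beta 1 integrin chain common to most matrix receptors, ranged from 353 to 474 CPM in sham and from 569.7 to 961 CPM in TAC (0.78 ± 0.19, edgeR adjusted p = 0.0124), and Itga11, a collagen receptor, from 0.0694 to 1.33 CPM in sham and from 1.19 to 5.83 CPM in TAC (2.33 ± 0.60, edgeR adjusted p = 0.0166). Itgb6, an epithelial chain that activates TGF-beta, was the one fall (-1.68 ± 0.42, edgeR adjusted p = 0.0144). Cdc42ep3 was not called without WT sham 1 (edgeR adjusted p = 0.0599). Itgb1 was not called without WT sham 1 (edgeR adjusted p = 0.0595). Itgb6 was not called without WT sham 2 (edgeR adjusted p = 0.0516).

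Of 68 tubulin and microtubule genes 15 were higher (22.1%, against 10.6% of all genes) and 6 lower. The share that fell, 8.82%, was near the 8.96% of all genes. Tubb5 stood at 64.1 and 54.1 CPM in the WT sham libraries, 72.4, 65.7 and 60.2 CPM in the KO sham libraries, and 85.5 to 163 CPM (median 126) in the 6 TAC libraries. All TAC libraries were higher for this beta tubulin (1.01 ± 0.19, edgeR adjusted p = 0.00315). Among alpha tubulins Tuba1c ranged from 5.37 to 10.6 CPM in sham and from 9.86 to 42.4 CPM in TAC (1.67 ± 0.35, edgeR adjusted p = 0.0056) and Tuba4a from 504 to 653 CPM in sham and from 152 to 441 CPM in TAC (-1.10 ± 0.26, edgeR adjusted p = 0.0114), opposite directions in 1 gene family. Exons of Tuba4a overlap those of Stk16 on the other strand over 37.3% of their length, and tubulin genes are alike enough that reads may be assigned to the wrong one. Map7, which recruits kinesin to microtubules, changed by -0.79 ± 0.19 (edgeR adjusted p = 0.0134). Map7 was not called without KO TAC 2 (edgeR adjusted p = 0.053). Library totals gave 36 rises and 0 falls, and the falls were 3 on leaving out KO TAC 2, 10 for WT TAC 3 and 11 for KO TAC 1.

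Markers of macrophages and monocytes rose together. Of 26 markers 20 rose and 0 fell, 10 with pooling alone, with a median of 1.47. Their summed level was 339 to 569 CPM in sham and 621 to 3080 CPM in TAC, lowest in WT TAC 3 (621) and KO TAC 1 (771) and highest in WT TAC 2 (3080). Cd68 stood at 3.31 and 3.78 CPM in the WT sham libraries, 3.61, 3.86 and 4.65 CPM in the KO sham libraries, and 6.67 to 21.3 CPM (median 9.42) in the 6 TAC libraries. Cd68, a lysosomal glycoprotein of macrophages, was higher in all TAC libraries (1.59 ± 0.33, edgeR adjusted p = 0.00468). Csf1r, the receptor for the growth factor that macrophages depend on, ranged from 13.3 to 17.7 CPM in sham and from 21.1 to 48.9 CPM in TAC (1.08 ± 0.23, edgeR adjusted p = 0.00631), and C1qc, of complement C1q, from 21.01 to 31.3 CPM in sham and from 39.4 to 100.1 CPM in TAC (1.24 ± 0.25, edgeR adjusted p = 0.00393). No lymphocyte, neutrophil, mast cell or fat cell marker passed the test, in lists of 11, 11 and 5 tested genes, and 1 of 23 endothelial markers rose, against 10 rises and 3 falls among 22 fibroblast markers; library totals gave 6 endothelial and 16 fibroblast rises.

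Among cytokine and lysosomal genes rises outnumbered falls, and the part of the macrophage markers in this was not tested. Of 79 chemokines, cytokines and their receptors 29 rose and 7 fell, 15 and 5 with pooling alone. The share that fell, 8.86%, was near the 8.96% of all genes. Library totals gave 44 rises and 4 falls, and leaving out WT sham 1 gave 4 falls. Cxcl16 stood at 8.37 and 6.45 CPM in the WT sham libraries, 13.4, 5.13 and 7.98 CPM in the KO sham libraries, and 14.2 to 37.3 CPM (median 22.9) in the 6 TAC libraries. The groups were apart for this chemokine, with KO sham 1 the highest sham library. Cxcr4, a chemokine receptor, changed by 1.69 ± 0.39 (edgeR adjusted p = 0.0087). Growth factor genes rose in 15 and fell in 11 of 80 cases (18.75% and 13.75%, against 10.6% and 8.96% of all genes). Library totals gave 23 rises and 4 falls. The falls were 6 on leaving out WT sham 2 or KO TAC 2 and 7 for KO sham 2. A covariate for ribosomal protein mRNA gave 4 falls. Axl, a receptor kinase that senses dying cells, changed by 0.85 ± 0.19 (edgeR adjusted p = 0.00784), Grn, progranulin, by 0.98 ± 0.22 (edgeR adjusted p = 0.0087), and Vegfb, a vascular growth factor abundant in heart muscle, by -0.80 ± 0.18 (edgeR adjusted p = 0.0091). Lysosomal genes rose in 14 of 52 cases (8 with pooling alone), such as Cd63, a tetraspanin (1.31 ± 0.31, edgeR adjusted p = 0.0103), while Ctsf, cathepsin F (-0.85 ± 0.17, edgeR adjusted p = 0.00482), and Npc1, which exports cholesterol from lysosomes (-1.09 ± 0.23, edgeR adjusted p = 0.00507), were 2 of the 3 falls. Library totals gave 32 lysosomal rises and 0 falls, and a covariate for ribosomal protein mRNA 9 rises. Lysosomal rises numbered 8 on leaving out WT sham 2 and 9 for WT sham 1 or KO sham 3, and falls 5 on leaving out WT TAC 3 or KO TAC 1.

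Interferon-induced genes rose in 18 of 64 cases, 10 with pooling alone, and 1 fell (35 and 0 with library totals, 10 and 0 without WT sham 1). Ifit1 and Ifit3 block translation of foreign RNA. Ifit3 stood at 5.75 and 7.16 CPM in the WT sham libraries, 16.6, 9.77 and 8.89 CPM in the KO sham libraries, and 10.6 to 24.6 CPM (median 19.98) in the 6 TAC libraries. KO sham 1 was the highest sham library and overlapped with WT TAC 1 and 2 (1.07 ± 0.24, edgeR adjusted p = 0.00823). Ifit3 was lowest, among the TAC libraries, in WT TAC 1 and 2, whose macrophage markers summed to 2623 and 3080 CPM. It was at 21.6 and 19.7 CPM in WT TAC 3 and KO TAC 1, where that sum was lowest. These are values of 1 gene, and the part of the macrophage markers in the interferon list was not tested. Ifit1 stood at 6.87 and 5.51 CPM in the WT sham libraries, 10.0, 6.27 and 6.66 CPM in the KO sham libraries, and 6.91 to 20.6 CPM (median 15.1) in the 6 TAC libraries. The same KO sham 1 overlapped with WT TAC 1 here (1.03 ± 0.24, edgeR adjusted p = 0.0104). The factors Irf5 and Irf8 changed by 1.22 ± 0.26 (edgeR adjusted p = 0.00631) and 1.04 ± 0.27 (edgeR adjusted p = 0.017), and Itgax, an integrin of dendritic cells and macrophages, by 2.08 ± 0.42 (edgeR adjusted p = 0.00409). The fall was Iigp1, an immunity-related GTPase (-0.89 ± 0.27, edgeR adjusted p = 0.0359). Irf8 was not called without WT sham 1 (edgeR adjusted p = 0.0564). Iigp1 was not called on leaving out any 1 of WT sham 1 and 2, KO sham 1 and 3, WT TAC 1 and 2, KO TAC 2 and 3 (edgeR adjusted p from 0.0557 to 0.102).

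**Figure D5:**
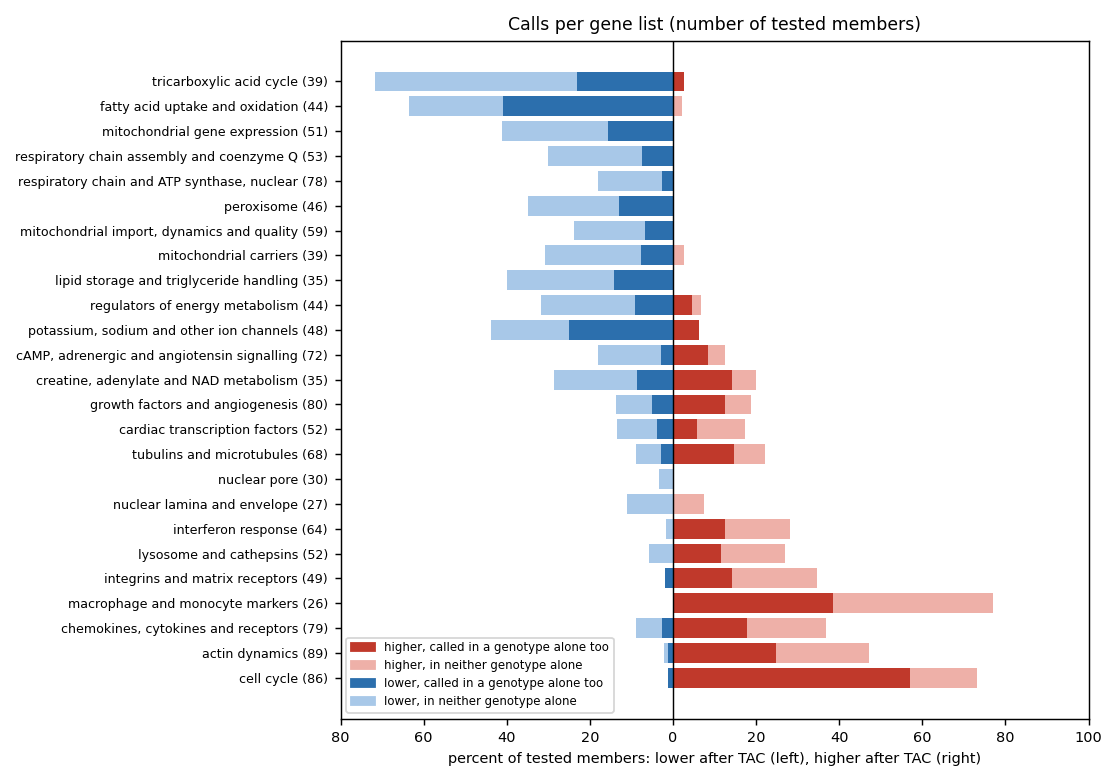
Share of tested members of 25 gene lists called lower (left, blue) and higher (right, red) after TAC; pale bars are members called in neither genotype alone, and the number of tested members is in brackets. Bars to the left are mostly pale for the tricarboxylic acid cycle (19 of 28 falls) and mostly dark for fatty acid oxidation (10 of 28 falls pale), while the actin, macrophage and cytokine lists extend to the right.

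Cell cycle genes rose in 63 of 86 cases, with a median of 2.55, and most were called in a genotype alone; pooling added 14. These were lowly expressed: Mybl2, a transcription factor of late cell cycle genes, ranged from 0 to 0.187 CPM in sham and from 0.286 to 2.33 CPM in TAC (3.09 ± 0.78, edgeR adjusted p = 0.0147), with 7 counts over the 5 sham libraries. Ttk, a kinase of the spindle checkpoint, ranged from 0 to 0.5 CPM in sham and from 0.409 to 4.72 CPM in TAC (3.22 ± 0.82, edgeR adjusted p = 0.0153), with 17. Stmn1, which takes microtubules apart, ranged from 1.26 to 5.93 CPM in sham and from 5.61 to 11.9 CPM in TAC (1.46 ± 0.37, edgeR adjusted p = 0.0142). Cenpf, a centromere protein, was the one fall (-1.54 ± 0.41, edgeR adjusted p = 0.0197), with 17.2 CPM in KO TAC 1 against 6.23 CPM for the next highest TAC library. Cenpf was not called on leaving out any 1 of WT sham 1, KO sham 2, WT TAC 2, KO TAC 2 and 3 (edgeR adjusted p from 0.0524 to 0.0632).

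Promoters of called genes were searched for 9 short motifs in 7 lists, 63 combinations, after the calls were seen and with no test. The window was 250 bases before to 50 after the first listed start (RefSeq, GRCm38.p6), on both strands, for 10944 tested genes with an entry. The motif TTTGAA, the core of the cell cycle homology element, was in 30 of 52 rising cell cycle promoters against 11.9% of all, but in 34 of 70 of the whole list. The motif of interferon regulatory factors (GAAA, any 2 bases, GAAA) was in 8 of 13 rising interferon genes against 3.09% of all, and in 24 of 47 of that list. The CArG box, bound by serum response factor, was in 5 of 36 rising actin genes and 6 of 76 of that list against 1.3% of all, and CCAAT in 37 of 52 rising cell cycle genes against 38.4%. AAGGTCA, part of the site of estrogen-related receptors, was in 1 of 26 falling cycle genes, 3 of 19 falling genes of mitochondrial expression and 0 of 10 falling respiratory chain genes, against 3.21% of all, and in 2 of 34, 4 of 45 and 8 of 64 of the whole lists. The longer TCAAGGTCA, which holds it, was in 0, 1 and 0 of the same, against 0.256%, and in 2 of 36 rising actin genes. GAGGAAGT, a PU.1 site, was in 2 of 15 rising macrophage markers against 3.18%, the NRF1 site in 3 of 26 falling cycle genes, 0 of 19 falling genes of mitochondrial expression and 2 of 10 falling respiratory chain genes (11 of 64 of that list) against 6.37%, and the E2F site in 7 of 52 rising cell cycle genes (13 of 70 of that list) against 4.02%. In lists for which it was not chosen, TTTGAA was in 4 of 15 rising macrophage markers, 4 of 19 falling genes of mitochondrial expression, 4 of 26 falling cycle genes, 5 of 36 rising actin genes, 1 of 13 rising interferon genes and 0 of 10 falling respiratory chain genes. The interferon motif was likewise in 2 of 10, 2 of 15, 5 of 52, 1 of 19, 1 of 26 and 0 of 36 called genes of the respiratory chain, macrophage, cell cycle, mitochondrial expression, tricarboxylic acid cycle and actin lists, and the CArG box in 1 of 52 rising cell cycle genes and, outside the actin list, in no other called gene of these lists. A match describes the letters in the window and no site of binding.

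The 250 bases before the start are shown for 4 rising genes with matches on either strand, in capitals, so that the position of the motif can be seen: the interferon regulatory factor motif in Ifit1 (chr19:34640639-34640888, plus strand) and Ifit3 (chr19:34583279-34583528, plus strand), the CArG box in Cnn2 (chr10:79988350-79988599, plus strand) and TTTGAA in Kif22 (chr7:127042421-127042670, minus strand), 5′ to 3′ in GRCm38.p6.
Ifit1: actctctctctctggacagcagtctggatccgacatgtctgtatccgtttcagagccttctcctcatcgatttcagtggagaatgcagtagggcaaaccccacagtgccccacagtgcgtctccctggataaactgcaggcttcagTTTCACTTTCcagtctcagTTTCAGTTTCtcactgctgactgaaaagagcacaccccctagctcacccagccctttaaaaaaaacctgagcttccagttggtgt
Ifit3: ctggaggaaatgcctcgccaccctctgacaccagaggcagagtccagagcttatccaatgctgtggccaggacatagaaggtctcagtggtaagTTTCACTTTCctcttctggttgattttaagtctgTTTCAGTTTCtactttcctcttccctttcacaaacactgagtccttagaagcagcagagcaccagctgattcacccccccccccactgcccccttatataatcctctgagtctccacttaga
Cnn2: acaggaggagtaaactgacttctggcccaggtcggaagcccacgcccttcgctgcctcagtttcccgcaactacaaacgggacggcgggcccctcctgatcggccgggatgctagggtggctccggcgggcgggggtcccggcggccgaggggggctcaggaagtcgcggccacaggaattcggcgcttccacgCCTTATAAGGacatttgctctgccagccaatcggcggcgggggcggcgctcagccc
Kif22: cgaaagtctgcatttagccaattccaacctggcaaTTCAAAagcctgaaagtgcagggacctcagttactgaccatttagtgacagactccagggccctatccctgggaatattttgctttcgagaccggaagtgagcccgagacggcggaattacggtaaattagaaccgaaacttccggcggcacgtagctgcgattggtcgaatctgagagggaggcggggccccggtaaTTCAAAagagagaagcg
In these windows Ifit1 and Ifit3 hold 2 matches each, Cnn2 holds 1, and Kif22 holds 2. Cnn2, calponin 2, which binds actin, ranged from 19.5 to 29.5 CPM in sham and from 43.2 to 87.9 CPM in TAC (1.17 ± 0.21, edgeR adjusted p = 0.00245), and Kif22, a kinesin that moves chromosomes, from 0.181 to 0.5 CPM in sham and from 2.68 to 12.2 CPM in TAC (3.73 ± 0.50, edgeR adjusted p = 0.000346). These 4 promoters were chosen for their matches, and Cnn2 and Kif22 named, after the values were seen.

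The nuclear envelope, the subject of the series, was covered by 3 lists. Of 30 nuclear pore genes 1 fell and 0 rose, with a median of -0.00037; of 32 import, export and Ran genes 2 fell and 0 rose. In both lists the shares that fell and that rose are below the 8.96% and 10.6% of all genes. Ndc1, the transmembrane nucleoporin, changed by -0.77 ± 0.24 (edgeR adjusted p = 0.0384). Ipo13 stood at 46.7 and 40.5 CPM in the WT sham libraries, 59.5, 62.3 and 49.6 CPM in the KO sham libraries, and 15.1 to 34.5 CPM (median 21.4) in the 6 TAC libraries. Ipo13, which carries cargo in both directions, was lower in all TAC libraries (-1.10 ± 0.22, edgeR adjusted p = 0.0046), and Kpna6, an importin alpha, changed by -0.71 ± 0.21 (edgeR adjusted p = 0.0298). Among 27 genes of the lamina and envelope 2 rose and 3 fell, all with pooling alone, and these shares (7.41% and 11.1%) are near those of all genes. Lmnb1 stood at 2.25 and 2.60 CPM in the WT sham libraries, 4.07, 2.05 and 1.67 CPM in the KO sham libraries, and 2.80 to 21.96 CPM (median 5.63) in the 6 TAC libraries. Lmnb1, lamin B1, was highest in KO TAC 1 and overlapped between groups (1.59 ± 0.45, edgeR adjusted p = 0.0251), and Lmna, of lamins A and C, changed by 0.59 ± 0.18 (edgeR adjusted p = 0.038). Tor1aip1, which activates torsin at the inner membrane, changed by -0.69 ± 0.17 (edgeR adjusted p = 0.0134), Tmem201, which links the lamina to the cytoskeleton, by -1.10 ± 0.28 (edgeR adjusted p = 0.0146), and Plpp7 by -0.63 ± 0.17 (edgeR adjusted p = 0.0214). Lmnb2 itself had a log2 difference of 0.92 ± 0.49 (edgeR adjusted p = 0.212), which did not pass the test. Ndc1 was not called on leaving out any 1 of WT sham 1 and 2, KO sham 1, 2 and 3, WT TAC 2, KO TAC 2 and 3 (edgeR adjusted p from 0.0547 to 0.146). Kpna6 was not called on leaving out any 1 of WT sham 1 and 2, KO sham 2 and 3, WT TAC 1 and 2, KO TAC 2 and 3 (edgeR adjusted p from 0.0553 to 0.0925). Lmnb1 was not called on leaving out any 1 of WT sham 1, KO sham 2 and 3 (edgeR adjusted p from 0.0544 to 0.0698). Lmna was not called on leaving out any 1 of WT sham 1 and 2, KO sham 1 and 2, WT TAC 2 and 3, KO TAC 1 and 2 (edgeR adjusted p from 0.0501 to 0.138). Tmem201 was not called without WT sham 1 (edgeR adjusted p = 0.054). Plpp7 was not called without WT sham 1 (edgeR adjusted p = 0.105). With library totals 6 pore genes rose and 0 fell, and 5 envelope genes rose and 0 fell. The envelope list had 0 rises and 1 fall on leaving out WT sham 1, and 0 rises and 3 falls for KO sham 2.

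Circadian genes gave 4 falls and 0 rises among 23, 3 with pooling alone, and the list median was -0.15. Hlf stood at 29.9 and 35.7 CPM in the WT sham libraries, 42.4, 60.8 and 11.5 CPM in the KO sham libraries, and 2.86 to 13.6 CPM (median 6.51) in the 6 TAC libraries. The bZIP factor Hlf overlapped through KO sham 3, the lowest sham library (-2.17 ± 0.43, edgeR adjusted p = 0.00387). Its relatives Tef and Dbp changed by -1.07 ± 0.27 (edgeR adjusted p = 0.0142) and -1.95 ± 0.33 (edgeR adjusted p = 0.00169). The hour at which hearts were taken is not given in the sources used here. Lists with few calls beside the background were the proteasome (0 rose and 1 fell of 43), ribosome biogenesis (0 and 2 of 63), cholesterol synthesis (2 and 1 of 32) and the secretory pathway (6 and 2 of 73), and library totals raised the rises among them to 13, 15, 10 and 31. Rises in the secretory pathway were 2 on leaving out WT sham 1, 3 for WT sham 2, KO sham 3, WT TAC 2, KO TAC 2 or KO TAC 3 and 10 for KO TAC 1, and those of the proteasome and of ribosome biogenesis 5 on leaving out KO TAC 1 and 5 on leaving out KO TAC 1.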

How the data were processed

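RNA of the ventricular myocardium was sequenced in 11 libraries. The authors deposited 1 table of whole-number counts per gene, with no other normalization; per the submitters' processing notes reads were aligned with STAR 2.5.1 to GRCm38, counted with featureCounts and tested with DESeq2, whose results are not used here. Surgery and genotype came from the labels, and columns were matched to samples by the source names. The replicate numbers 1 to 3 only name libraries.

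From these counts, genes with enough counts for the 4 groups were kept by edgeR's filterByExpr (14619), scaled by TMM and tested with edgeR 4.0.16 in R 4.3.3 by the quasi-likelihood method, 2-sided, in an additive model of genotype and surgery. A model with 1 mean per group gave WT alone, KO alone and the difference of the responses. P-values were adjusted by Benjamini-Hochberg over all tested genes, at 0.05. Levels are CPM scaled by the TMM factors, and standard errors are derived from the size of change and the test statistic, so they are approximate. The scripts were tested on simulated data. Library totals from 14770383 to 17333227 counts set the precision, and intervals cover the spread between libraries. No 2 libraries of 1 group agreed within sampling noise. Gene names are those of GENCODE M21, whose exons gave the overlaps; promoters are RefSeq on GRCm38.p6.

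The comparison and the 73 gene lists were chosen with earlier results of these data known. Named genes followed a rule: the 6 rises and 6 falls with the smallest p among genes averaging 1 CPM or more whose groups did not overlap; the 12 rises and 12 falls called only with both genotypes together, averaging 5 CPM or more, likewise apart; and up to 4 genes per list. Not every gene the rule gives is named: 26 were left out after their values were seen, in part those whose calls changed most often with other settings, and a few more results are not reported here, so how often the named genes kept their calls is no sign of stability. Conversely Gsn, Pdk3, Ipo13, Clic5, Cdc42ep3, Itgb6, Prkag2, Hif1a, Cenpf, Kpna6, Acsl5, Gatm, Iigp1, Trpv2, Lmna, Ndc1, Cnn2 and Kif22 were chosen after their values were seen, as was the choice of lists to describe, mostly those with 9 or more calls that needed both genotypes, and the motifs. Alternatives were other scalings (relative log expression, library totals, mitochondrial genes left out of the library size), filters, DESeq2 1.42.0, limma-voom 3.58.1, other models, covariates and libraries left out.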

Additional observations from a re-analysis of the deposited data

Results flagged for a closer look

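In each named gene the highest or lowest library of the 5 sham and of the 6 TAC libraries was compared with its nearest neighbour, in 290 groups, and 22 stood apart by Dixon's 95% criterion. Chance gives about 1 in 20 groups. Sham and TAC libraries each hold both genotypes, so that a library can also stand apart by genotype.

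KO TAC 1 stood apart most often, for 6 genes. It was the highest TAC library for Kif22 (12.2 CPM, next 5.66), Mybl2 (2.33 CPM, next 0.982), Lmnb1 (21.96 CPM, next 6.75), Cenpf (17.2 CPM, next 6.23) and Itgb6 (11.8 CPM, next 5.50), and the lowest for Clic5 (360 CPM, next 483). Kif22, Mybl2 and Cenpf are cell cycle genes and Lmnb1 encodes lamin B1. WT TAC 1 was the lowest TAC library for Ak1 (157 CPM, next 287), WT TAC 2 the highest for Cnn2 (87.9 CPM, next 59.7), and KO TAC 3 the highest for Trpv2 (5.37 CPM, next 3.48). WT TAC 3 was the highest for Myh7 (1715 CPM, next 694) and the lowest for Smco1 (5.14 CPM, next 6.91).

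Among the sham libraries WT sham 1 was the lowest for Kcnv2 (4.81 CPM, next 11.01) and the highest for Dcaf11 (178 CPM, next 140.0) and Tuba1c (10.6 CPM, next 6.73), and WT sham 2 the highest for Mtpn (64.1 CPM, next 48.5). KO sham 1 was the lowest for Ak4 (23.1 CPM, next 29.2) and Kpna6 (58.1 CPM, next 75.2). KO sham 2 was the highest for Fn1 (21.05 CPM, next 12.5) and Grn (50.4 CPM, next 35.2) and the lowest for Phyh (855 CPM, next 988). KO sham 3 was the highest for Pex11a (33.2 CPM, next 24.6) and Prkag2 (35.2 CPM, next 27.4).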

How the results depend on the processing

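The pooled call count of 2855 was 2524 to 3961 under the other scalings, filters, tools and models, but 1526 (967 higher, 559 lower) with the libraries whose title ends in M and 5436 (2688 higher, 2748 lower) without KO TAC 1 and WT TAC 3. Library totals gave 3574 higher and 387 lower. Leaving out 1 library gave 1672 (WT sham 1) to 3870 calls (KO TAC 1), 1885 without WT sham 2, with 976 to 1979 higher and 696 to 1891 lower (841 without WT sham 2, 814 without KO TAC 2). Genes called in neither genotype alone numbered 957 with no filter on low counts and 942 to 2186 with 1 library left out, the lowest without WT TAC 3. WT alone gave 2243 calls with no filter, 2197 by DESeq2, 608 with the title letter as covariate, 204 with M titles, 536 with the ribosomal protein share as covariate, 4373 without KO TAC 1 and WT TAC 3, and 30 (without WT sham 1) to 2666 (without WT TAC 3) with 1 library left out. KO alone gave 1381 calls with library totals, about 1.3e+03 with no filter, 1490 by DESeq2, 102 with M titles, 1428 with the ribosomal protein share, 2117 without KO TAC 1 and WT TAC 3, and 226 (without KO sham 1) to 996 (without WT TAC 3) with 1 library left out. Where an arm of WT or KO was left with 1 library, that library is assumed to vary like the other groups. The response differed between genotypes for 80 genes with no filter, 2 by DESeq2 and 1 without KO TAC 1 and WT TAC 3. The causes of these differences were not tested. With M titles 12 of the 57 named rises and 42 of the 87 named falls were not called. With the title letter as covariate and all 11 libraries 2 rises and 2 falls were not. No named gene reversed under these alternatives. No paired analysis was possible because the replicate numbers were given in accession order and the title numbers are shared by no groups. Depth limits genes near 1 CPM, about 15 counts a library.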
